A study of Mus musculus with 8 samples.

Results

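The transcripts described here mark the blood vessels of the lymph node. 10 genes were chosen by name, with earlier results of these data known, out of 11487 genes that a probe of the array names. 4 of them, Glycam1, Chst4, Fut7 and Madcam1, were listed as genes of the high endothelial venule. The other 6, Vwf, Esam, Pecam1, Cdh5, Kdr and Tek, are expressed by blood endothelium in general. 9 of the 10 were measured by 13 probes, and the probe annotation used here names none for Kdr, the VEGF receptor VEGFR2, which was not analysed. RNA came from tumor-draining lymph nodes of female C57BL/6 mice carrying subcutaneous B16 melanoma, a transplantable mouse tumor line. In 4 mice the tumor was injected once with 3M-052, an agonist of TLR-7/8, and in 4 mice with its vehicle, when tumors measured 30 to 40 mm2. Nodes were taken 4 days later and read on 1 Illumina bead array per mouse, on which the brightness of a probe reports the abundance of its transcript. The extraction text of the labels speaks of tumors, whereas every other label speaks of lymph node. The B cell genes Cd79b and Ms4a1 were detected on all 8 arrays. This alone cannot decide between the tissues, since the paper describes B cells in melanoma too. The paper's methods name draining lymph nodes for the arrays, and the samples are taken as such here. The melanocyte genes Dct, Pmel, Sox10 and Slc45a2 were detected on 1, 2, 2 and 3 of the 4 3M-052 arrays, and on all 4 vehicle arrays.

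High endothelial venules are the vessels through which naive lymphocytes enter a lymph node. Their plump endothelial cells carry mucin-like proteins, among them GlyCAM-1, decorated with a sulfated and fucosylated sugar to which passing lymphocytes attach. Chst4 encodes a sulfotransferase and Fut7 a fucosyltransferase that build this sugar, and Madcam1 encodes the ligand of the integrin α4β7. In mice, lymphotoxin signals keep these vessels in their specialized state, through the noncanonical NF-κB pathway. The remaining genes encode proteins shared by most blood vessels. Von Willebrand factor tethers platelets, ESAM, PECAM-1 and VE-cadherin (Cdh5) join endothelial cells to each other, and Tie2 (Tek) is the receptor of the angiopoietins.

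Glycam1 and Chst4 were lower after 3M-052, and Madcam1, of the same list, did not pass the test. The start regions of these 3 venule genes are shown for that reason. They are RefSeq sequences of GRCm38.p6, on the strand of the gene, from 250 bases before to 50 bases after the annotated start. 6 of the 10 genes had an entry. Capitals mark AGGAAG, a core of ETS factor sites, on either strand, and in Madcam1 also the NF-κB type motif, GGGA, any base, TT, any base, CC.
Glycam1, chr15:103565032-103565331, minus strand: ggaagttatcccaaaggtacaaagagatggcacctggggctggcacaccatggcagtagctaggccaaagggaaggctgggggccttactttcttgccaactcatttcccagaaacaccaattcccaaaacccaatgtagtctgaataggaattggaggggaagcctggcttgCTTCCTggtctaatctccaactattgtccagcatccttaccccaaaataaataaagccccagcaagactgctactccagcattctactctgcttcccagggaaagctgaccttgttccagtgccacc
Chst4, chr8:110039285-110039584, minus strand: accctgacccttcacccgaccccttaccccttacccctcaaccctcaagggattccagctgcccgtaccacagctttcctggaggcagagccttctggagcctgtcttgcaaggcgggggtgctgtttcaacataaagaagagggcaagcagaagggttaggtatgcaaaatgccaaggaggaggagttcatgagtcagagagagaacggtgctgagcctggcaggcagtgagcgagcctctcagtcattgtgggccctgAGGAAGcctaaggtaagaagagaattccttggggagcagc
Madcam1, chr10:79664309-79664608, plus strand: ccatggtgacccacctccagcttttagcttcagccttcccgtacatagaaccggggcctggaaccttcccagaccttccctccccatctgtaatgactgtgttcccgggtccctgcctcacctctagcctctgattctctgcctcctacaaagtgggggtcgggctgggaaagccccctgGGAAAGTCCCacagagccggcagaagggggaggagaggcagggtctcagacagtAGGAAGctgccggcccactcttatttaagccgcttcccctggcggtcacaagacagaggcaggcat

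Each of the 3 windows held 1 match of AGGAAG, as did 35.4% of 32851 start regions of this length. The NF-κB type match stood in Madcam1 alone of the 3, at -70 from the start on the other strand, and 1.2% of all start regions held one. The AP-1 type motif TGANTCA matched once, in Chst4, against 7.81% of all start regions, and TATAAA matched in none of the 3, against 13.6%. Motifs were searched on both strands, do not overlap in these windows and were chosen after matches had been seen. A match is a run of letters, not evidence of a bound factor.

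Levels are normalized log2 intensities throughout, corrected for background and quantile normalized, and are listed in the order of replicates 1 to 4 of each group. Log2 differences (log2 fold changes) are 3M-052 minus vehicle, with their standard error (SE) from limma. A gene passed the test at an adjusted p under 0.05 from limma, with Benjamini-Hochberg adjustment over the 19462 probes that were detected on at least 4 of the 8 arrays. Detection means a detection p under 0.05 against the negative control beads of the array, and 17817 to 19773 probes were detected per 3M-052 array, against 19094 to 20315 per vehicle array. All 13 probes of the 9 genes were detected on every vehicle array, and 12 of them on every 3M-052 array. The exception was the dimmer Chst4 probe, which was not detected on the array of 3M-052 replicate 1. Precision is limited by the number of arrays.

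Genes of both vessel classes were lower in lymph nodes after 3M-052, while Fut7, Madcam1, Cdh5 and Tek did not pass the test. Of the 9 measured genes, 5 were lower, none was higher and 4 did not pass the test, where 2.29% of all tested probes were called lower, 2.81% higher and 5.1% in either direction. Over all tested probes 546 were higher and 446 lower, a split that became 570 and 298 with median centering over these probes, and 428 and 145 with median centering over all probes of the array. The 5 were Glycam1 and Chst4 among the venule genes and Vwf, Esam and Pecam1 among the endothelium genes. In 6 of the 9 genes every 3M-052 node lay below every vehicle node, against 7.1% of all tested probes. The median log2 difference of the 9 was -0.80, and that of all tested probes was -0.0098. These arrays read whole nodes, and normalized levels are relative to the other RNA of the node. Fewer endothelial cells, more of other cells or their RNA, and less transcript per endothelial cell cannot be told apart.

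**Figure D1:**
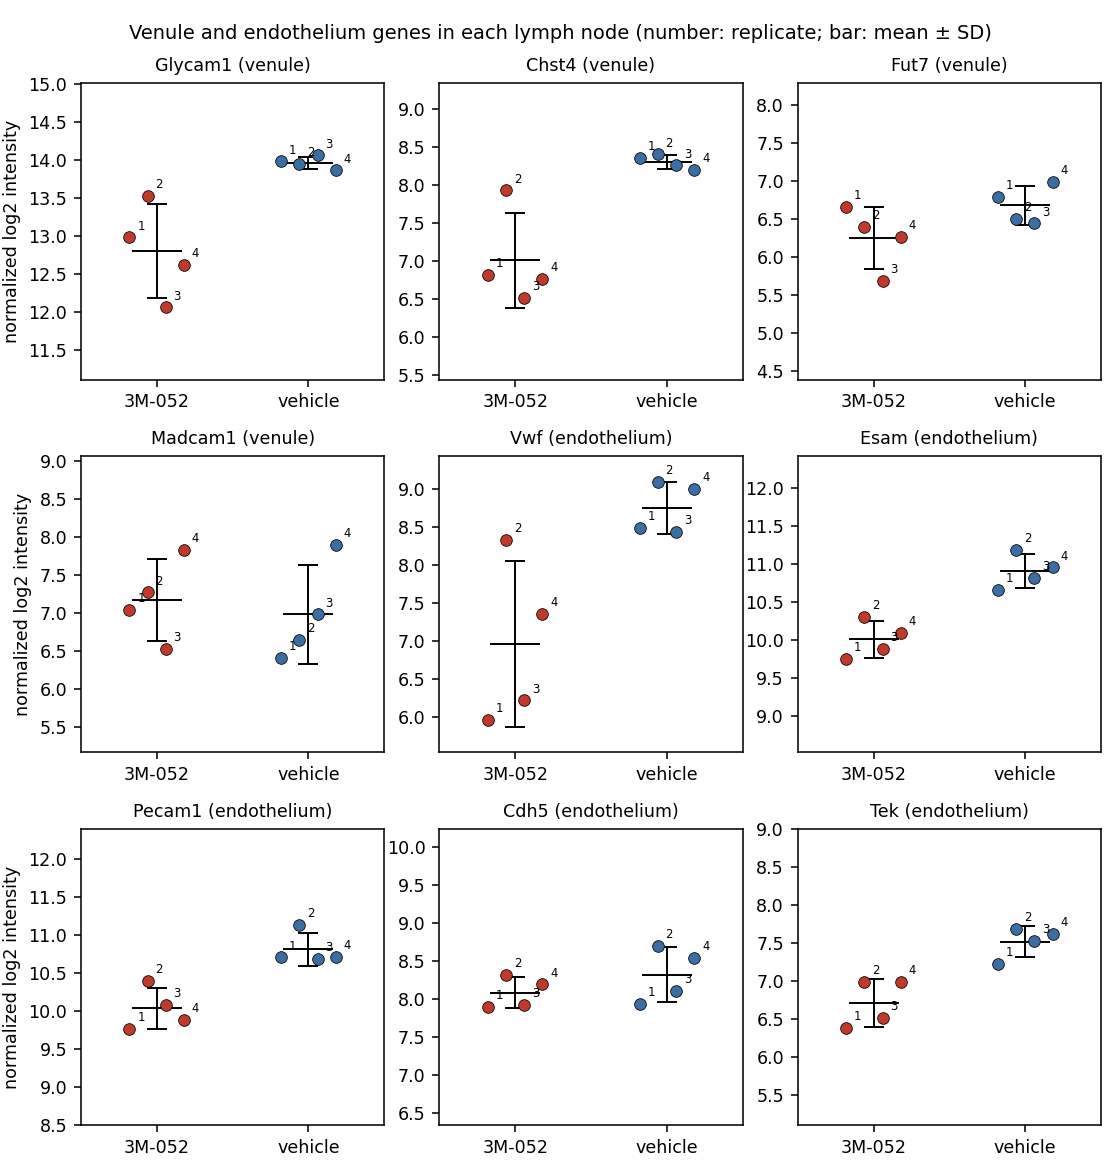
Normalized log2 intensity of the brightest probe of each of the 9 measured genes, 1 dot per mouse (number: replicate), with mean ± SD, 3M-052 left and vehicle right. In 6 of the 9 genes every 3M-052 node lies below every vehicle node, while Fut7, Madcam1 and Cdh5 overlap.

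Glycam1, which encodes a secreted mucin that carries this sugar, was lower in every 3M-052 node. Its level was 12.98, 13.53, 12.06 and 12.62 in the 3M-052 nodes, against 13.98, 13.95, 14.06 and 13.86 in the vehicle nodes. The vehicle nodes were nearly equal and the 3M-052 nodes spread over more than 1 log2 unit below them, with replicate 3 lowest. The groups differed by -1.16 ± 0.25 log2 units (SE, limma, adjusted p = 0.020), so that vehicle nodes had 2.24 times the signal. The groups did not overlap (exact permutation p = 0.029, two-sided, which is the lowest value possible with 4 mice against 4). Before normalization the probe read 5055 to 13647 in 3M-052 nodes and 11061 to 17002 in vehicle nodes, below the highest reading of every array. The call was lost without 3M-052 replicate 1 or vehicle replicate 1, 2 or 3 (0.056 to 0.070), and the adjusted p was 0.13 with median centering of the arrays instead of quantile normalization (log2 difference -0.84).

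Chst4, the sulfotransferase that adds sulfate to the sugar, followed Glycam1 closely. Its brighter probe stood at 6.81, 7.92, 6.51 and 6.76 in the 3M-052 nodes and at 8.35, 8.396, 8.25 and 8.19 in the vehicle nodes. 3M-052 replicate 2 came closest to the vehicle nodes, and the groups did not overlap (exact permutation p = 0.029). The groups differed by -1.30 ± 0.28 log2 units (SE, limma, adjusted p = 0.022). The dimmer probe gave -1.21 (limma adjusted p = 0.029), also without overlap. The call was lost without 3M-052 replicate 1 or 4 or vehicle replicate 1, 2 or 3 (adjusted p = 0.052 to 0.080).

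The other venule genes did not pass the test. Fut7, the fucosyltransferase of the same sugar, stood at 6.65, 6.40, 5.69 and 6.26 after 3M-052 and at 6.79, 6.49, 6.44 and 6.98 after vehicle. 3 of the 4 3M-052 nodes lay below all vehicle nodes. The log2 difference was -0.43, with a 95% confidence interval of -0.96 to 0.10 (limma adjusted p = 0.36), which includes changes as large as that of Pecam1. Madcam1 stood at 7.05, 7.27, 6.53 and 7.83 in the 3M-052 nodes and at 6.41, 6.65, 6.98 and 7.90 in the vehicle nodes. The highest node of either group was replicate 4, and the groups overlapped. The log2 difference of Madcam1 was 0.18, with a 95% confidence interval of -0.58 to 0.94 (limma adjusted p = 0.83). Its direction was not stable, since it became -0.038 when 3M-052 replicate 4 was left out and -0.0084 when vehicle replicate 1 was. The interval of Madcam1 lay above the log2 differences of Glycam1 and Chst4, and the difference between these genes was not tested. Which cells of the node gave the Fut7 and Madcam1 signals was not tested either.

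Among the endothelium genes, Vwf had the largest difference of the 9. It stood at 5.97, 8.34, 6.22 and 7.36 in the 3M-052 nodes and at 8.49, 9.10, 8.44 and 9.005 in the vehicle nodes. The 3M-052 nodes ranged over more than 2 log2 units, and replicate 2 came close to the lowest vehicle node. The groups differed by -1.79 ± 0.44 log2 units (SE, limma, adjusted p = 0.041, exact permutation p = 0.029), a 3.45-fold higher signal in vehicle nodes. The call was lost in each fit without one of the arrays (adjusted p = 0.052 to 0.13) except the one without 3M-052 replicate 2 (0.0049), without the variance trend (0.051) and in the authors' normalized table (0.052). Von Willebrand factor is also made by megakaryocytes, and of 8 platelet genes listed, 2 were measured. Their mean level was 5.71 to 6.85 in 3M-052 nodes and 6.67 to 6.998 in vehicle nodes. Pf4, detected on 2 of the 4 3M-052 arrays, and Itga2b had log2 differences of -0.77 and -0.28 (limma adjusted p = 0.37 and 0.70), and their part in the Vwf difference was not tested.

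Esam, a junction protein of endothelium and platelets, had the smallest adjusted p of the 9. Its level was 9.76, 10.30, 9.89 and 10.10 in the 3M-052 nodes, against 10.66, 11.19, 10.82 and 10.96 in the vehicle nodes. The nodes of a group lay close together and the groups were apart (exact permutation p = 0.029). The groups differed by -0.89 ± 0.17 log2 units (SE, limma, adjusted p = 0.011), and Esam was the only call of the 5 that held in every fit that left out an array (adjusted p = 0.0094 to 0.048).

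Pecam1, the adhesion molecule CD31, was read by 3 probes. The brightest stood at 9.77, 10.40, 10.08 and 9.89 after 3M-052 and at 10.70, 11.14, 10.69 and 10.71 after vehicle. All 4 vehicle nodes exceeded all 3M-052 nodes (exact permutation p = 0.029), with a log2 difference of -0.78 ± 0.17 (SE, limma, adjusted p = 0.026). The call was lost with median centering (adjusted p = 0.061) and without 3M-052 replicate 1 or 4 or vehicle replicate 1, 2 or 3 (0.053 to 0.097). The second probe gave -0.88 and just missed the threshold (limma adjusted p = 0.055), while the dimmest gave -0.30 with overlapping groups (adjusted p = 0.49). White blood cells also express Pecam1, and Cd3e, which encodes part of the receptor complex of T cells, showed a log2 difference of -0.89 (limma adjusted p = 0.0031) in these nodes, a call lost with median centering, and whose part in the Pecam1 difference was not tested.

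Tek and Cdh5 did not pass. The level of Tek was 6.38, 6.99, 6.51 and 6.98 in the 3M-052 nodes and 7.23, 7.69, 7.53 and 7.62 in the vehicle nodes, with no overlap (exact permutation p = 0.029). The groups differed by -0.80 ± 0.21 log2 units (SE, limma, adjusted p = 0.052), and a fit blocked on replicate number gave an adjusted p of 0.011. Cdh5, which encodes VE-cadherin and is nearly confined to endothelium, stood at 7.90, 8.31, 7.92 and 8.19 after 3M-052 and at 7.94, 8.70, 8.11 and 8.54 after vehicle. The groups overlapped, with a log2 difference of -0.24 and a 95% confidence interval of -0.70 to 0.22 (limma adjusted p = 0.58). The second Cdh5 probe gave -0.17 (adjusted p = 0.78). The log2 differences of Vwf, Esam, Pecam1 and Tek fell below this interval, and the differences between these genes and Cdh5 were not tested.

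**Figure D2:**
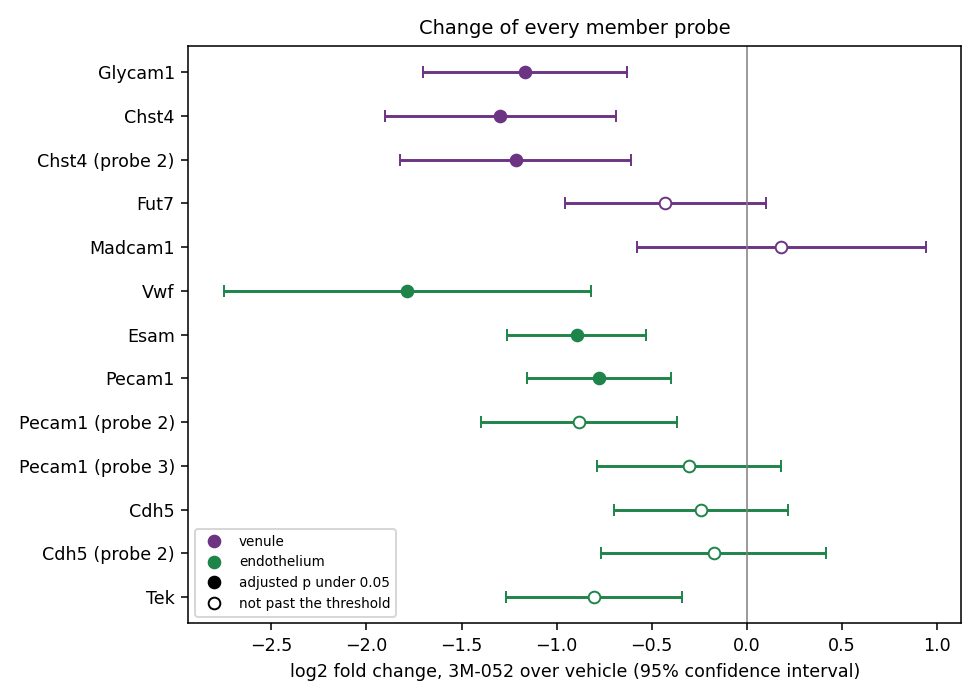
Log2 fold change of each of the 13 probes, 3M-052 over vehicle, with 95% confidence intervals from limma. Filled symbols passed an adjusted p of 0.05, and the intervals of Fut7, Madcam1, Cdh5 and the dimmest Pecam1 probe include 0.

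Nodes of a group were not alike. 3M-052 replicate 2 had the highest level of its group in 7 of the 9 genes, and replicates 1 and 3 had the lowest in 5 and 4. Among vehicle nodes replicate 2 was highest in 6 of the 9. The SD was larger in the 3M-052 group in 7 of the 9 genes, a share near that of all tested probes, 68.7%. For Glycam1 the SD was 0.62 after 3M-052 and 0.082 after vehicle, and for Vwf 1.09 after 3M-052 and 0.34 after vehicle. Leaving out an array left between 1 and 6 of the 9 genes called lower. The count was 1 without 3M-052 replicate 1 or vehicle replicate 1, 2 or 3, in each case Esam, 2 without 3M-052 replicate 4, and 6 without 3M-052 replicate 2. With the test that the methods name, a t-test of unpaired groups, none of the 9 passed after Benjamini-Hochberg adjustment, whereas 5 passed in limma after the same adjustment. At an unadjusted p under 0.05 in limma, 6 of the 9 were lower. Of all tested probes, 12% were lower and 8.39% higher at that unadjusted threshold.

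Deviations from the group means, over the 8 arrays, were compared between genes. The correlation of these deviations was 0.88 between Glycam1 and Chst4, and 0.87 to 0.91 between Tek and each of Vwf and Esam. Among the endothelium genes it was highest between Esam and Cdh5, at 0.93, and lowest between Pecam1 and Tek, at 0.54. Between the classes it was 0.79, 0.66 and 0.59 for Chst4 with Vwf, Pecam1 and Esam, and 0.38 and 0.47 with Cdh5 and Tek. With the endothelium genes it was 0.23 to 0.58 for Glycam1 and -0.31 to 0.17 for Fut7. Values between the classes thus overlapped those among endothelium genes for Chst4 and Glycam1, and lay below them for Fut7. For Madcam1 it ranged from -0.22 with Pecam1 to 0.61 with Tek, and was 0.069 with Chst4. Arrays of a group share processing, these values describe 8 arrays only, and they carry no test.

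Venule genes were also set against general endothelium on each array. The mean level of the 4 venule genes was 8.37, 8.78, 7.70 and 8.37 in the 3M-052 nodes, against 8.88, 8.87, 8.93 and 9.23 in the vehicle nodes. The mean of the 5 endothelium genes was 7.96, 8.87, 8.13 and 8.50 after 3M-052 and 9.003, 9.56, 9.12 and 9.37 after vehicle. Neither mean overlapped between the groups, and the differences were -0.68 for venule genes and -0.90 for endothelium genes. The venule mean minus the endothelium mean averaged -0.058 ± 0.35 in 3M-052 nodes and -0.28 ± 0.27 in vehicle nodes (SD, 4 mice each), and the groups overlapped. This difference between the groups was 0.22. Its direction depended on the genes averaged, since it was -0.031 when Vwf and Pecam1 were left out and 0.39 without Glycam1. When a single array was left out it was 0.065 to 0.35. Within the class the differences had both signs. Relative to the endothelium mean, Glycam1 and Chst4 differed by -0.26 and -0.40 between the groups, and Fut7 and Madcam1 by 0.47 and 1.08. The groups overlapped for each of these 4 genes. Madcam1 minus the endothelium mean was -0.91, -1.59, -1.60 and -0.67 in the 3M-052 nodes and -2.59, -2.91, -2.13 and -1.47 in the vehicle nodes. Members and classes were chosen with results known, so these values carry no test.

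**Figure D3:**
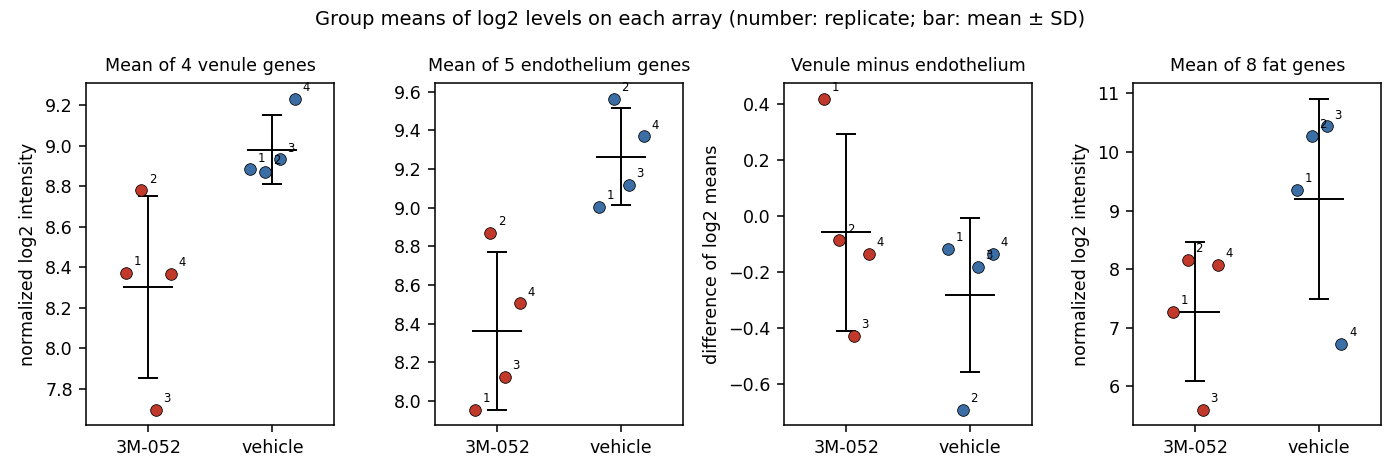
Mean log2 level of the venule genes, of the endothelium genes, their difference, and the mean of 8 fat genes, 1 dot per array (number: replicate) with mean ± SD, 3M-052 left and vehicle right. The first 2 means do not overlap between the groups, the difference does, and the fat mean of vehicle replicate 4 lies among the 3M-052 nodes.

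Transcripts of other tissues differed between the arrays. Of 11 fat genes listed, 8 were measured, and their mean level was 5.60 to 8.16 in 3M-052 nodes and 9.36, 10.27, 10.44 and 6.73 in the vehicle nodes. All 8 had a negative log2 difference, none passed the test, and 5 were lower at an unadjusted p under 0.05 in limma, against 12% of all tested probes. With the fat mean as a covariate none of the 9 genes passed, and 26 probes were called lower in all. In that fit the log2 differences were -0.85 for Glycam1, -1.03 for Chst4, -1.48 for Vwf, -0.81 for Esam and -0.70 for Pecam1 (adjusted p = 0.16 to 0.38 from limma). Of 8 melanocyte genes 4 were measured, at a mean level of 4.84 to 5.84 in 3M-052 nodes and 9.84 in vehicle replicate 3, against 5.36 to 6.14 in the other vehicle nodes. Without vehicle replicate 3 the log2 differences of the 5 called genes were -0.82 to -1.89, and Esam alone passed. Of 4 red blood cell genes listed, 2 were measured under the listed names, Hba-a1 and Alas2. Their mean was 7.73 to 8.55 after 3M-052 and 9.41 to 9.81 after vehicle. The 2 measured keratinocyte genes of 3 listed had a mean of 5.76 to 7.88 after 3M-052 and 7.77 to 8.24 after vehicle. Neither was called. In the fit blocked on replicate number Krt14, a keratin of the basal epidermis, was lower (log2 difference -2.28, limma adjusted p = 0.017, and 0.073 unblocked). That fit called 7.7% of all probes lower. Krt10, the other measured keratinocyte gene, had -0.098 (limma adjusted p = 0.89, and 0.73 in the blocked fit). Hba-a1 and Alas2 were lower, with log2 differences of -1.76 and -1.28 (limma adjusted p = 0.0028 and 0.0087), against 2.29% of all tested probes called lower. The beta globin genes Hbb-bs and Hbb-bt were not in the list but were measured. A probe of each was lower, at -1.75 and -1.71 (limma adjusted p = 0.0023 and 0.0052). The part of fat, melanocyte, keratinocyte and red blood cell transcripts in the vessel genes' difference was not tested.

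The other genes that build or carry the sugar did not pass the test. Of 11 further high endothelial venule genes listed, 9 were measured, and none was called in either direction (4 lower and none higher at an unadjusted p under 0.05 in limma, where 12% of all tested probes were lower, and none by the adjusted t-test of the methods). The median log2 difference was -0.43, and 8 of the 9 were negative, as were 51.4% of all tested probes. Chst2, a second sulfotransferase of the sugar, had a log2 difference of -0.71 (limma adjusted p = 0.10), and Cd34, which encodes a mucin-like carrier protein, had -0.81 (adjusted p = 0.12). In the fit blocked on replicate number, 3 of the 9 were lower, Chst2, Cd34 and the chemokine-binding receptor gene Ackr1 (limma adjusted p = 0.031, 0.015 and 0.028), where 7.7% of all probes were called lower. Fut4, the other fucosyltransferase, had a log2 difference of -0.059, and Gcnt1 and B3gnt3, which extend the sugar's backbone, had -0.26 and -0.43.

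The wider set of endothelial genes had mostly negative log2 differences, and none passed the test by its brightest probe. Of 26 genes listed, 23 were measured, 21 had a negative log2 difference, and none was called in either direction (9 lower and none higher at an unadjusted p under 0.05 in limma, against 12% of all tested probes lower, and none by the adjusted t-test of the methods). The median was -0.44. Plvap, which encodes the diaphragm protein of fenestrated and venular endothelium, had -0.64 (limma adjusted p = 0.085), and Rasip1, a regulator of vessel lumen formation, had -0.76 (adjusted p = 0.11). Aqp1, a water channel, had 3 probes. The brightest gave -0.74 (limma adjusted p = 0.12), another passed the test at -0.90 (adjusted p = 0.020) and the dimmest gave -0.70 (adjusted p = 0.051). In the fit blocked on replicate number 9 of the 23 were lower, where 7.7% of all probes were called lower. Among the 9 were Aqp1, Robo4, a guidance receptor, and Cav1, a caveolar coat protein (limma adjusted p = 0.0043, 0.0050 and 0.011). Other genes of the list were near 0, with -0.020 for the tight junction gene Cldn5, -0.13 for Icam2 and 0.15 for Cd93. With array weights, or without 3M-052 replicate 2 or vehicle replicate 4, 2 genes of this list were called. Of the 19462 tested probes, array weights called 869 lower and 838 higher. The fit without 3M-052 replicate 2 called 667 and 616, and that without vehicle replicate 4 called 683 and 670.

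Adhesion molecules that inflamed endothelium displays did not pass either. 4 of 5 were measured, with log2 differences of -0.39 for Selp, which encodes P-selectin, -0.28 for Icam1, 0.15 for Vcam1 and 0.017 for Cd44, and adjusted p values of 0.30 to 0.97 from limma. Their median was -0.13, and 0.087 with median centering. None had an unadjusted p under 0.05, and none passed the adjusted t-test of the methods. Of 13 genes of vessel growth 10 were measured and 1 was lower, against 2.29% of all tested probes. Nrp1, a co-receptor of VEGF that plasmacytoid dendritic cells and T cells also express, stood at 9.36, 10.13, 9.41 and 9.51 in the 3M-052 nodes and at 10.52, 10.71, 10.73 and 10.25 in the vehicle nodes. The groups did not overlap and differed by -0.95 ± 0.19 log2 units (SE, limma, adjusted p = 0.018). The other probes of Nrp1 gave -0.91 and -1.10 (adjusted p = 0.031 and 0.074). The call was lost without 3M-052 replicate 1 or vehicle replicate 1, 2 or 3 (limma adjusted p = 0.067, 0.061, 0.071 and 0.057). The ligand genes Vegfa and Vegfb had -0.35 and -0.0020, and Flt1, the receptor VEGFR1, had -0.72 (adjusted p = 0.52, 1.00 and 0.19). In the fit blocked on replicate number Flt1 was also called lower (adjusted p = 0.011), where 7.7% of all probes were called lower.

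**Figure D4:**
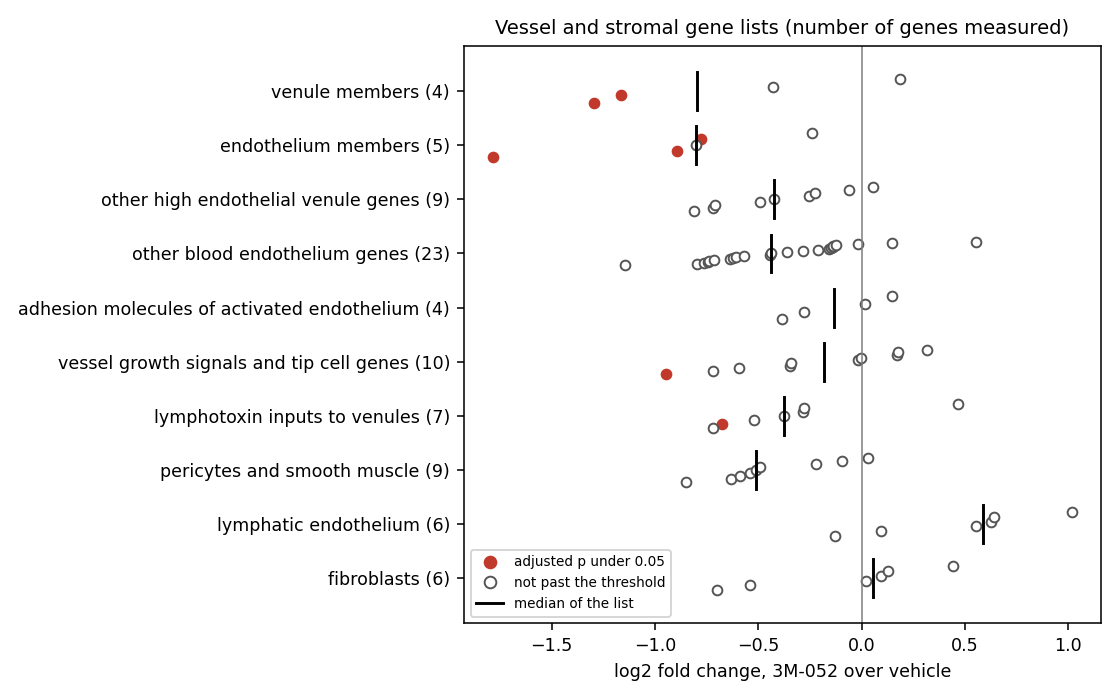
Log2 fold change, 3M-052 over vehicle, of each measured gene in the vessel and stromal lists, with the median of each list as a line. Filled dots passed an adjusted p of 0.05. Medians of the blood vessel and pericyte lists lie below 0 (that of the adhesion molecules lies at 0.087 with median centering), while that of lymphatic endothelium is 0.59 and that of fibroblasts 0.057.

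Of the signals that maintain high endothelial venules, 7 of 7 genes were measured and 1 was lower, against 2.29% of all tested probes. Relb, the NF-κB subunit of the noncanonical pathway, stood at 9.43, 9.59, 9.48 and 9.66 in the 3M-052 nodes and at 10.01, 10.37, 10.19 and 10.28 in the vehicle nodes. The groups were well apart, with a log2 difference of -0.67 ± 0.14 (SE, limma, adjusted p = 0.019), and the call was lost with median centering (0.080) and without 3M-052 replicate 1 or vehicle replicate 2 or 3 (0.057, 0.084 and 0.055). Relb is expressed by dendritic cells and lymphocytes too. The ligand genes Ltb and Lta had log2 differences of -0.72 and 0.46 and the receptor gene Ltbr -0.52 (adjusted p = 0.18, 0.18 and 0.29). In the fit blocked on replicate number Ltb was also called lower (adjusted p = 0.026), where 7.7% of all probes were called lower.

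On the lymphocyte side, 6 of 7 homing receptor genes were measured, 2 were lower and none was higher. Of all tested probes, 2.29% were called lower and 2.81% higher. Selplg, the P-selectin ligand PSGL-1, stood at 11.60, 12.01, 11.73 and 11.58 after 3M-052 and at 12.53, 12.37, 12.30 and 12.37 after vehicle, a log2 difference of -0.67 (limma adjusted p = 0.015). Itgb7, the β7 chain of the integrin that binds MAdCAM-1, stood at 10.47, 11.18, 10.86 and 10.56 after 3M-052 and at 11.85, 11.82, 11.93 and 11.24 after vehicle, a log2 difference of -0.94 (limma adjusted p = 0.020). The groups did not overlap for either gene. The Selplg call was lost with median centering (0.18) and without 3M-052 replicate 1 or vehicle replicate 1 or 2 (0.051, 0.071 and 0.054), and the Itgb7 call without 3M-052 replicate 1 or 4 or vehicle replicate 1, 2 or 3 (0.073, 0.050, 0.078, 0.075 and 0.062). In the fit blocked on replicate number Ccr7, the receptor of the chemokines that guide lymphocytes into nodes, was also called lower (log2 difference -0.56, limma adjusted p = 0.019). That fit called 7.7% of all probes lower. With the fat mean as a covariate, Nrp1, Relb, Selplg and Itgb7 did not pass (limma adjusted p = 0.16 to 0.28).

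Other stromal cells of the node showed no single direction. 9 of 10 pericyte and smooth muscle genes were measured, 8 had a negative log2 difference with a median of -0.51, and none passed (6 lower and none higher at an unadjusted p under 0.05 in limma, against 12% of all tested probes lower). Notch3 and Rgs5, of pericytes, had -0.85 and -0.63 (adjusted p = 0.13 and 0.15). Both were lower in the fit blocked on replicate number (adjusted p = 0.039 and 0.037), where 7.7% of all probes were called lower. Pdgfrb and Cspg4, of the same list, had -0.097 and 0.029 (limma adjusted p = 0.88 and 0.96) and were not called in the blocked fit. 6 of 7 lymphatic endothelium genes were measured, 5 had a positive log2 difference with a median of 0.59, and none passed (2 higher and none lower unadjusted, against 8.39% of all tested probes higher). Reln and Lyve1, which mark lymphatic vessels, had 1.02 and 0.62 (adjusted p = 0.18 for each). In the blocked fit Reln and Prox1, the lymphatic transcription factor gene, were higher (adjusted p = 0.038 and 0.042), where 6.33% of all probes were called higher. The 6 fibroblast genes had a median of 0.057 and none passed (none in either direction unadjusted). None of the genes of these 3 lists passed the adjusted t-test of the methods.

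The genes whose levels ran most closely with Glycam1 and Esam, which have the highest mean level of each class, were sought among 10542 others over the 8 arrays. For Glycam1 they were Chst4 (r = 0.97), Rab4a, Il18r1, Lrg1 and Uba6 (r = 0.95 to 0.96), and for Esam they were Fam8a1, Bace2, Hsd3b7, 2510009E07Rik and Papss2 (r = 0.98). The difference between the groups adds to these values, and correlations of deviations from the group means were 0.85 to 0.88 for the first 5 genes and 0.88 to 0.94 for the second 5. Lrg1, which encodes a secreted glycoprotein made by endothelium among other cells, had a log2 difference of -1.48 (limma adjusted p = 0.010), and Papss2, which makes the sulfate donor that sulfotransferases use, had -0.71 (adjusted p = 0.020).

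**Figure D5:**
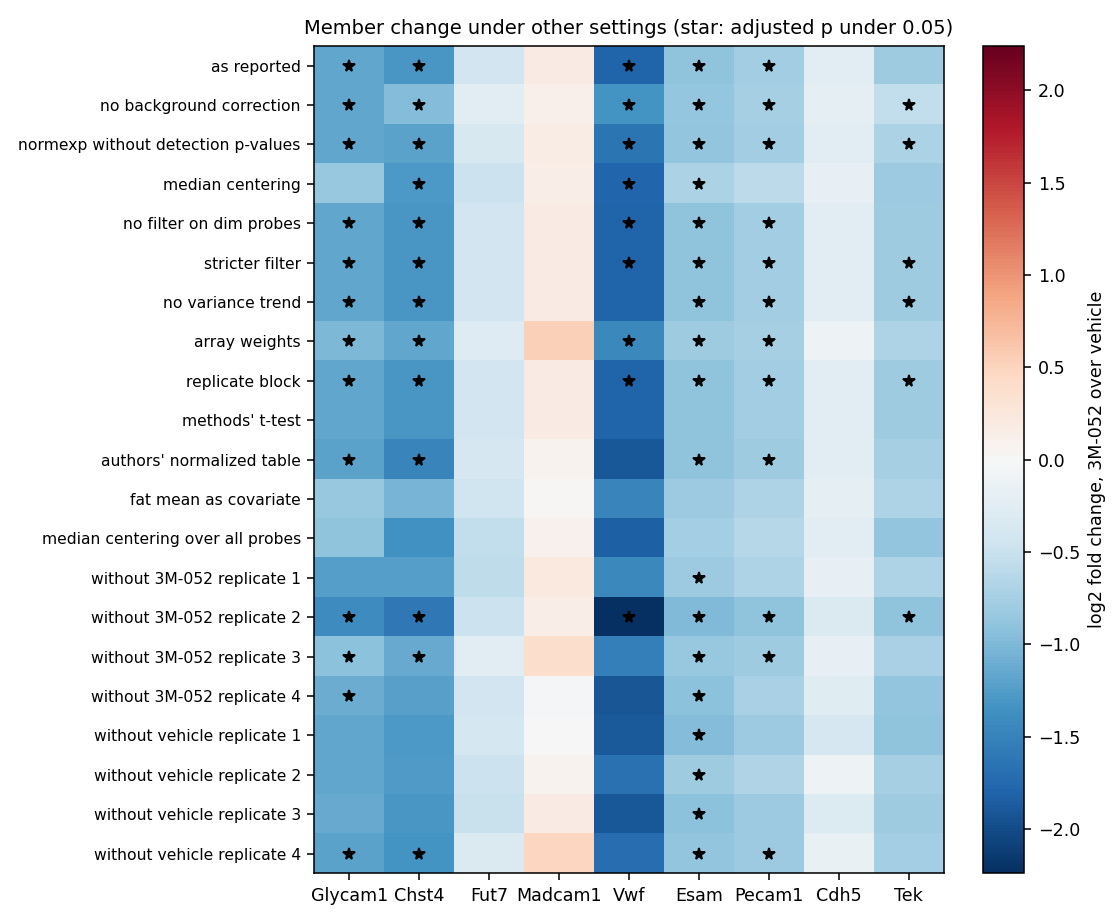
Log2 fold change of the 9 genes, 3M-052 over vehicle, as reported (top line) and under each other setting, with stars where the adjusted p was under 0.05. The sign is kept in all settings for every gene except Madcam1, while stars are lost in many fits, and in none for Esam when a single array is left out.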

How the data were processed

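RNA of 8 lymph nodes was measured on Illumina Ref-6 version 2 mouse arrays, 4 per group. The authors deposited scanner intensity values and detection p-values of 45281 probes, summarized with GenomeStudio (no version is given), and a second table of 21765 probes with intensity normalized in a way not given, on a scale taken as linear, with medians of 115, 123, 123 and 118 for 3M-052 replicates 1 to 4 and 125, 126, 123 and 119 for vehicle replicates 1 to 4. On the log2 scale every column matched its own array best (correlation of 0.984 or more). Intensities were background corrected and quantile normalized with neqc (offset 16, limma 3.58.1, R 4.3.3), and the comparison used lmFit, then eBayes with the trend option. The limma procedure was tested on simulated data. Probes were named through the platform annotation, updated by gene identifier to GRCm38.p6. 18216 probes have 1 name, 8 of the second table have several, and the rest are unnamed here. The brightest kept probe stands for a gene. All members with a probe were named, and of every other list up to 4 genes per direction that passed, or up to 2 with the lowest unadjusted p. Genes given beyond that were chosen after their values were seen. Members, lists and tests were chosen with earlier results of these data known. Slides and scan dates were not given. Same-numbered arrays of the groups deviated together (correlations 0.19, 0.43, 0.25 and 0.57 for numbers 1 to 4), so the pairing by number comes from the data and is not a stated design. The reported fit is unpaired, as in the methods, and so are the permutation tests.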

Additional observations from a re-analysis of the deposited data

Results flagged for a closer look

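In 2 of 36 groups of 4 values examined, 1 array stood far from the other 3 by the criterion of Dixon, which chance alone meets in about 1 of 20 groups. Pecam1 was highest in vehicle replicate 2, at 11.14 against 10.71 in the next vehicle node, and this gap took 0.942 of the range of the group. The venule mean minus the endothelium mean was lowest in the same node, at -0.69 against -0.18 in the next, a gap of 0.888 of the range. Without vehicle replicate 2, Pecam1 had a log2 fold change of -0.67 (adjusted p = 0.097 from limma), and the venule minus endothelium difference between the groups was 0.087.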

How the results depend on the processing

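The sign of 8 of the 9 vessel genes was kept in all 20 alternatives, and Madcam1 changed sign when 3M-052 replicate 4 (-0.038) or vehicle replicate 1 (-0.0084) was left out, in a leave-one-out range of -0.038 to 0.49. With the replicate block, 1499 probes were lower and 1232 higher, 2 venule and 4 endothelium genes were called, and 3 of the other high endothelial venule genes and 9 of the other blood endothelium genes. Array weights gave 869 lower and 838 higher and 2 of the other blood endothelium genes, and no filter on dim probes gave 255 lower. The t-test of the methods gave 98 lower and 118 higher after adjustment, and the fat mean as a covariate 26 lower and 150 higher. Both of these, and median centering over all probes (145 lower), which was chosen after seeing the data, called 0 venule and 0 endothelium genes. Median centering over the tested probes called 1 venule gene. Leaving out 1 array gave 118 to 683 probes lower and 283 to 670 higher, 0 to 2 venule genes, 1 to 4 endothelium genes, 0 to 1 of the other high endothelial venule genes and 0 to 2 of the other blood endothelium genes. The cause of these shifts was not tested. Signal near background limits the dimmer probes, such as the second Chst4 probe.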
